A study of Mus musculus with 7 samples.

Results

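The TAM receptors Axl, Mertk and Tyro3 and their ligands Gas6 and Pros1 were followed across the cell types of the mouse hippocampus. These 5 genes were chosen by name out of the 55536 genes counted, and all 5 were found in the count matrix. The rule that names them uses no measured value, but the choice was made with earlier results of these data known. The mice were wild type (WT) or Arctic48 (Arc) mice, which carry 1 hemizygous copy of a human APP transgene with the Indiana, Swedish and Arctic mutations on C57BL6/J and form amyloid plaques. They drank water (veh) or 20 µg/ml PMX205, a cyclic hexapeptide antagonist of the complement receptor C5aR1, for 12 weeks by the sample labels (the study's text gives a slightly shorter course) and were taken at 10 months of age. Hippocampal transcripts were counted in CD11b-bead-selected single cells, each well a pool of hippocampi of several mice, and in single nuclei, each well from 1 mouse, with 6 wells in each preparation for each of the groups Arc-veh, Arc-PMX, WT-veh and WT-PMX. Wells are named by sex and number (F1 to F3, M1 to M3).

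TAM receptors are receptor tyrosine kinases. Gas6 and protein S, the product of Pros1, are vitamin K-dependent proteins whose carboxylated end binds phosphatidylserine on dying cells, membranes and debris, while their other end binds the receptor, so that the phagocyte takes up what the ligand has tagged. Mertk and Axl are best known in macrophages and microglia, in which they also dampen cytokine signalling. Mertk is also used by astrocytes to take up synapses, and Tyro3 is the TAM receptor known from neurons and myelinating cells.

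The genes lie apart in the genome (GRCm38 coordinates, GENCODE M21). Axl (ENSMUSG00000002602.16) is on the reverse strand of chromosome 7 from 25757273 to 25788705, and Mertk (ENSMUSG00000014361.5) on the forward strand of chromosome 2 from 128698956 to 128802894. Tyro3 (ENSMUSG00000027298.17) is on the forward strand of chromosome 2 from 119797733 to 119818104. Gas6 (ENSMUSG00000031451.6) is on the reverse strand of chromosome 8 from 13465374 to 13494490, and Pros1 (ENSMUSG00000022912.8) on the forward strand of chromosome 16 from 62854307 to 62929346. Shown here are the 250 bases before the start of the 3 members whose level differed between the genotypes in a cell type. Axl rose in Arc microglia, Pros1 rose in Arc oligodendrocytes, and in the pooled astrocytes of Arc wells Pros1 was higher and Mertk lower. The bases come from RefSeq (GRCm38.p6), are written on the strand of the gene, and carry in capitals the letters that match a searched motif.
Axl, chr7:25788734-25788983: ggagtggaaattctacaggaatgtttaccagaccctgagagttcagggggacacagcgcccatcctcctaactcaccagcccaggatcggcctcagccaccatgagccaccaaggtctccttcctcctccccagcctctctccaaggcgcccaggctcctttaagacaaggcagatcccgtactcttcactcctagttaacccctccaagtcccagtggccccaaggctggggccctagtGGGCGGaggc
Mertk, chr2:128698665-128698914: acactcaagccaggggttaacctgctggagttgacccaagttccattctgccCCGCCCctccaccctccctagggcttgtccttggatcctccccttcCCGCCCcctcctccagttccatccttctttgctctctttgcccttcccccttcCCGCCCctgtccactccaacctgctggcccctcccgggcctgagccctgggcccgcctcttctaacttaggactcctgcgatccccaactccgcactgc
Pros1, chr16:62854057-62854306: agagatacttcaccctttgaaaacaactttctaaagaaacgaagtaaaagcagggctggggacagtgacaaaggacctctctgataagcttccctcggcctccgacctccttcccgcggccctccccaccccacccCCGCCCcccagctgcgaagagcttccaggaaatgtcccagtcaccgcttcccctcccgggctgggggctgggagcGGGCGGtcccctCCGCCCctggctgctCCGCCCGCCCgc
The motifs were searched on both strands. The GC box GGGCGG was found 1 time before Axl, 3 times before Mertk and 5 times before Pros1, with 1 pair of overlapping matches at the end of the Pros1 stretch, and 32.7% of 32851 promoters of the same length held it. The AP-1 motif TGANTCA, found in 6.75% of promoters, matched before none of the 5 members. These matches describe the letters of these windows only.

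After filtering, 43885 nuclei with a median of 4414 transcripts and 3823 single cells with a median of 649 transcripts remained. Nucleus wells held between 4389302 and 30001277 transcripts and single-cell wells between 1135 and 1430787. The cluster of nuclei called microglia held transcripts of all 14 microglial markers in each group, with a summed level of 12237 to 20116 CPM (transcripts per 1000000 counted in that type and well) in WT wells and 12784 to 14707 CPM in Arc wells. App, which checks the genotype labels, had a mean level over all nuclei of 497.9 CPM in WT-veh against 692.1 CPM in Arc-veh wells, and 542.7 CPM in WT-PMX against 676 CPM in Arc-PMX wells, and only the lowest Arc-PMX well (571.8 CPM) lay under the highest WT-PMX well (579.8 CPM). In the shallower single-cell wells App did not follow the labels, with 552.6 ± 286 CPM in WT-veh against 461.8 ± 261 CPM in Arc-veh and 740.3 ± 506 CPM in WT-PMX against 464.2 ± 101 CPM in Arc-PMX, so App checks no single-cell well. The study left out 1 WT sample whose expression was that of Arctic mice without a well being named in the sources used here, so all wells were kept under their labels. The WT-veh nucleus wells F3 and M3 held 0 and 3 microglia and 15 and 28 oligodendrocytes, against 19 to 47 microglia in the other 4. Nuclei of Arc wells were deeper, for example a median of 2915.5 transcripts per astrocyte nucleus in Arc-veh and 1266 in WT-veh. Levels are given in CPM of the transcripts of a cell type in a well, for wells with at least 10 cells of that type.

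Each member had its own pattern over the cell types, here as the mean level over wells of all groups. Mertk was highest in microglia (2550 CPM), then in astrocytes (1323 CPM) and then in pericyte or mural nuclei (319.3 CPM), and both steps were larger than the spread between wells. In neurons Mertk was at 4.23 CPM. Axl was highest in pericyte or mural nuclei (296.2 CPM), microglia (204.6 CPM), astrocytes (123.9 CPM) and fibroblasts (95.2 CPM), neighbours that did not differ beyond their spread. The microglial mean joins different levels, 36.1 and 17.0 CPM in WT-veh and WT-PMX wells and 346.1 and 331.7 CPM in Arc-veh and Arc-PMX wells, so that microglia lay below astrocytes in WT wells and above them in Arc wells. The step from fibroblasts to oligodendrocyte precursor cells (OPC, 32.5 CPM) exceeded it. No Axl transcript was counted in the 4151 oligodendrocyte nuclei, which limits the mean level there to 0.524 CPM (3 counts over all wells, counting error only). Tyro3 had the opposite distribution, with 136.1 CPM in oligodendrocytes, a step beyond the spread down to 24.8 CPM in neurons, and only 3.07 CPM in microglia, in which 1 transcript each was counted in WT-PMX, Arc-veh and Arc-PMX and 0 in WT-veh. Among neurons Tyro3 was at 46.3 CPM in CA1 pyramidal nuclei, 9.82 CPM in CA3 pyramidal nuclei and 2.48 CPM in dentate granule nuclei.

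The ligands were placed differently from each other. Gas6 was highest in the choroid plexus (278.7 CPM), beyond the spread above ependymal cells (166.9 CPM). Endothelial nuclei (93.4 CPM), microglia (78.0 CPM) and astrocytes (53.9 CPM) followed without a step beyond the spread, and neurons were at 36.1 CPM. Pros1 was highest in microglia (351.2 CPM), beyond the spread above endothelial nuclei (82.5 CPM). Ependymal (76.7 CPM), pericyte or mural (66.3 CPM) and fibroblast nuclei (55.6 CPM) came next. OPC (47.0 CPM), astrocytes (46.9 CPM) and oligodendrocytes (42.2 CPM) followed. The order of these last types depended on the genotype: oligodendrocytes were at 14.5 and 13 CPM in WT-veh and WT-PMX wells, below astrocytes (23.5 and 36.6 CPM) and OPC (25.2 and 30.7 CPM), and at 68.2 and 73.0 CPM in Arc-veh and Arc-PMX wells, beside 65.6 and 61.6 CPM in astrocytes. Its neuronal level was 7.89 CPM.

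**Figure D1:**
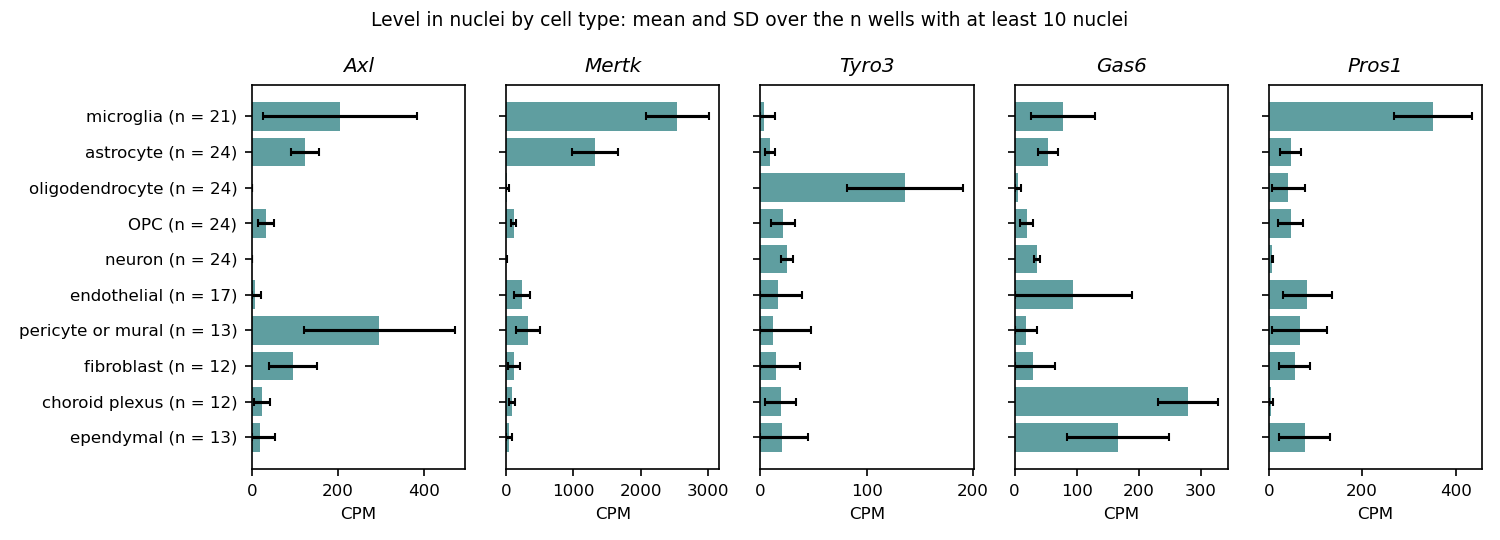
Horizontal bars give the level in nuclei (x axis, CPM) of each TAM member in 10 cell types (y axis), as the mean over the n wells with at least 10 nuclei, with the SD as error bars. Mertk stands at 2550 CPM in microglia and 1323 CPM in astrocytes, Tyro3 at 136.1 CPM in oligodendrocytes and Gas6 at 278.7 CPM in the choroid plexus.

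Axl rose in microglia of Arc mice. In microglial nuclei of WT-veh mice its level was 120.8 CPM (2 transcripts) in F1, 23.68 CPM (1 transcript) in F2 and 0 in M1 and M2. In WT-PMX it was 85.16 CPM (3 transcripts) in M2 and 0 in F1, F2, M1 and M3. Arc-veh wells had 579.3, 313.1, 265.6, 240.2, 271.1 and 407.3 CPM in F1, F2, F3, M1, M2 and M3. Arc-PMX wells had 474.8, 290.3, 380.0, 285.2, 284.3 and 275.5 CPM in the same order. Every Arc well lay above every WT well in both treatments. The fitted log2 fold change was 3.59 ± 0.62 (SE, adjusted p = 6.57e-05, edgeR quasi-likelihood test) for Arc-veh over WT-veh and 3.78 ± 0.60 (adjusted p = 1.74e-05) for Arc-PMX over WT-PMX. These comparisons share no well. No WT well and all 12 Arc wells reached the level at which the low-count filter tests a gene (149 CPM), so Axl was tested through Arc wells alone and a call could hardly go the other way. Without the filter the values were 3.87 (adjusted p = 9.51e-09) and 4.10 (adjusted p = 1.02e-10). Of the other 2 members tested in microglia neither passed, while 12.1% of 2180 genes passed in the first comparison and 12.7% in the second.

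The size of the Axl difference rests on few WT transcripts. Summed over wells, 3 transcripts were counted in WT-veh and 3 in WT-PMX against 296 in Arc-veh and 274 in Arc-PMX, ratios of level of 11.6 (95% interval 3.93 to 56.5) and 16.7 (5.65 to 81.4) by an exact test that covers counting error only. Without the well WT-PMX M2 no WT-PMX transcript was left and the second fold change was fitted at 7.91, a value that depends on the prior count. Border macrophage markers, which could mark another Axl-bearing cell among these nuclei, summed to 0 to 851.6 CPM in WT-veh against 0 to 203.6 CPM in Arc-veh wells, and 0 to 624.4 CPM in WT-PMX against 0 to 358.1 CPM in Arc-PMX wells. Of these 7 markers, 4 and 4 were detected in the veh groups and 2 and 5 in the PMX205 groups, and Cbr2 was at 0 in all groups.

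In single-cell microglia the order of the wells held in the PMX205 groups and not in the veh groups. Their Axl level was 0 in WT-veh F3 and M2 and 0 in WT-PMX M2 and M3, and WT-PMX F2 had 29.37 CPM (1 transcript). WT-veh F2 had 230.7 CPM (14 transcripts). Arc-veh wells had 210.5, 230.3, 146.1, 176.2 and 258.9 CPM in F1, F2, F3, M2 and M3, and Arc-PMX wells 412.1, 347.6, 187.7, 279.0, 298.0 and 173.0 CPM in F1, F2, F3, M1, M2 and M3. The well labelled WT-veh F2 thus lay within the Arc-veh range, and all other WT wells lay below every Arc well. Arc-PMX over WT-PMX was 4.70 ± 0.86 (adjusted p = 0.000696), with 12.2% of 1014 genes called. Here too Axl was tested through Arc wells alone, since 3 Arc-PMX wells and no WT well reached the level the filter asks for, and without the filter the value was 4.86 (adjusted p = 0.000129). Without the well Arc-PMX F2 or without sublibrary 1, 2 or 7 Axl was under the filter and the call was lost. Arc-veh over WT-veh was 0.63 ± 0.51 (adjusted p = 0.726) with the well and 7.82 ± 2.63 (adjusted p = 0.139) without it, a value that depends on the prior count because no Axl transcript was left in the WT-veh wells with at least 10 cells. In that comparison 0 members and 0.0% of genes were called by edgeR, whereas 100 genes stood below 0.05 before adjustment and 12 were called by DESeq2.

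Axl rose in microglia and passed no test in astrocytes or in pericyte or mural nuclei. Pericyte or mural nuclei gave log2 fold changes of 0.46 ± 0.61 in the veh and -0.71 ± 0.66 in the PMX205 comparison. Of 757 genes tested there 0.0% were called in each comparison, with 3 wells in WT-veh and 2 in WT-PMX. A test that called no gene cannot show whether the rise is limited to microglia. In astrocytes Axl was 116.4 ± 33.0 CPM (SD, n = 6) in WT-veh, 130.2 ± 48.1 in WT-PMX, 128.1 ± 11.2 in Arc-veh and 120.9 ± 32.1 in Arc-PMX, with log2 fold changes of 0.00 ± 0.19 and -0.18 ± 0.18. The difference of the genotype effect between microglia and astrocytes, taken within wells as a log2 ratio, was 3.12 in veh (adjusted p = 0.0191) and 3.37 in PMX205 wells (adjusted p = 0.0173, exact permutation test over wells, 32 comparisons). Each such comparison includes a type in which the member had been called in these wells, so it adds no independent support. Among single-cell microglial clusters Axl ran from 93.9 CPM in the cluster with 48.0% of its cells from Arc wells to 320.5 CPM in a cluster with 89.9%. Most single-cell microglia came from Arc wells, 1323 from Arc-veh and 600 from Arc-PMX against 126 from WT-veh and 152 from WT-PMX. Whether Axl followed the Arc share of a cluster was not tested.

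**Figure D2:**
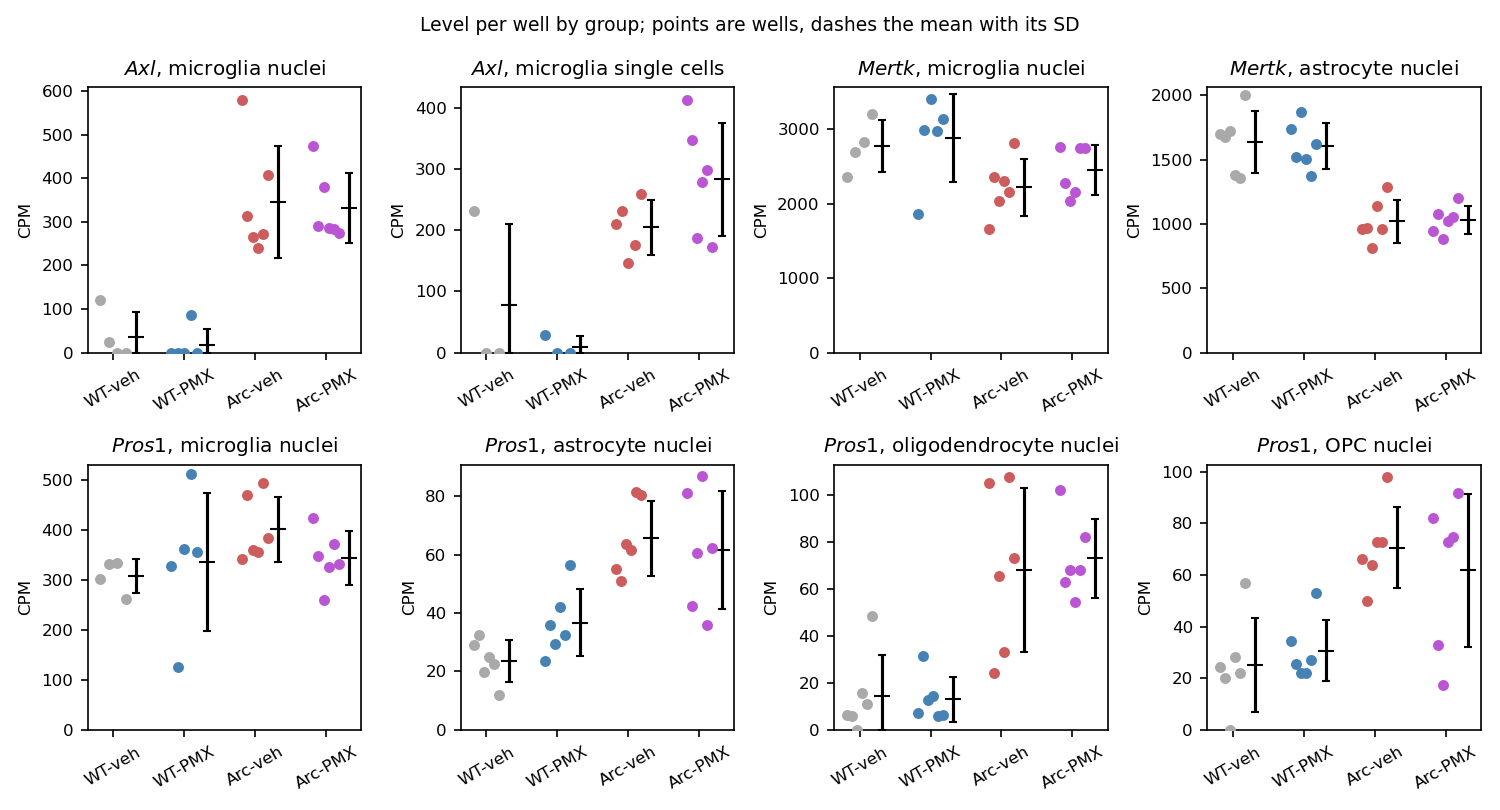
Each point is a well, placed by group (x axis) and level (y axis, CPM), and the dash beside the points gives the group mean with its SD. Axl in microglial nuclei is at 0 to 120.8 CPM in WT wells and 240.2 to 579.3 CPM in Arc wells, Mertk in astrocytes is lower in every Arc well than in every WT well, and Pros1 is higher in Arc wells of astrocytes, oligodendrocytes and OPC with some overlap.

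Mertk, the receptor with the highest level in microglia, did not pass the test there. Its microglial level was 2771 ± 349 CPM (SD, n = 4) in WT-veh against 2223 ± 382 (n = 6) in Arc-veh, and 2880 ± 592 (n = 5) in WT-PMX against 2455 ± 332 (n = 6) in Arc-PMX. WT-veh wells ran from 2356 to 3200 CPM and Arc-veh wells from 1664 to 2818 CPM, so the groups overlapped. The log2 fold changes were -0.26 ± 0.16 (adjusted p = 0.355) and -0.15 ± 0.15 (adjusted p = 0.621). Single-cell microglia had 1905 ± 503 and 1324 ± 323 CPM in the veh groups and 1743 ± 361 and 1388 ± 172 CPM in the PMX205 groups, WT first, with log2 fold changes of -0.15 ± 0.26 and -0.27 ± 0.24, neither past the threshold. An unnamed cluster of 1123 nuclei with a median of 4592 transcripts scored highest for oligodendrocyte markers (0.292) and next for microglial markers (0.197). Of its nuclei 11.4% were doublets before their removal. Named microglia were 1507 nuclei with a median of 1006 transcripts. With the unnamed cluster added, Mertk turned to 0.84 (adjusted p = 0.0138, edgeR) in Arc-veh over WT-veh, a value of mixed nuclei and not of microglia alone.

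In astrocytes Mertk fell. WT-veh wells had 1699, 1675, 1722, 1380, 1358 and 2000 CPM in F1, F2, F3, M1, M2 and M3, and WT-PMX wells 1737, 1516, 1871, 1504, 1373 and 1618 CPM. Arc-veh wells had 956.5, 964.6, 811.2, 1139, 958.2 and 1286 CPM, and Arc-PMX wells 947.0, 1077, 881.1, 1026, 1057 and 1202 CPM. The highest Arc well lay below the lowest WT well under either treatment. Mertk changed by -0.73 ± 0.12 in Arc-veh over WT-veh (adjusted p = 1.46e-05) and by -0.67 ± 0.12 in Arc-PMX over WT-PMX (adjusted p = 4.85e-05). It was 1 of 2 members called of 4 tested in astrocytes, the other being Pros1, beside 12.5% and 11.3% of 7295 genes.

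The astrocyte nuclei fell into 3 clusters, and Mertk passed no test within a cluster. Cluster SN-2 held 1341 nuclei from WT-veh against 401 from Arc-veh wells, and 1288 from WT-PMX against 473 from Arc-PMX wells. Cluster SN-13, which carried high Gfap, the filament protein of reactive astrocytes, held 20 and 657 in the veh groups and 38 and 620 in the PMX205 groups, and 95.7% of it came from Arc wells. Within SN-2 the Mertk level was 1724 ± 237 CPM in WT-veh, 1693 ± 158 in WT-PMX, 1785 ± 263 in Arc-veh and 1642 ± 373 in Arc-PMX. Within SN-13 it was 833.5 ± 139 CPM with Arc-veh and 814.1 ± 76.2 CPM with Arc-PMX wells, and no WT well held 10 nuclei of it. In the third cluster, SN-23, it was 550.7 ± 206, 642.7 ± 168, 537.1 ± 165 and 638.3 ± 148 CPM. Fitted in SN-2 alone the log2 fold changes were 0.05 (adjusted p = 0.955) and -0.05 (adjusted p = 0.999), and in SN-23 alone -0.06 and 0.02, so the call ended within a cluster. Since the clusters were made from these nuclei, their levels are a description. The difference of the genotype effect between astrocytes and microglia was -0.26 in veh (adjusted p = 0.232) and -0.37 in PMX205 wells (adjusted p = 0.0654, exact permutation test) and did not pass.

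**Figure D3:**
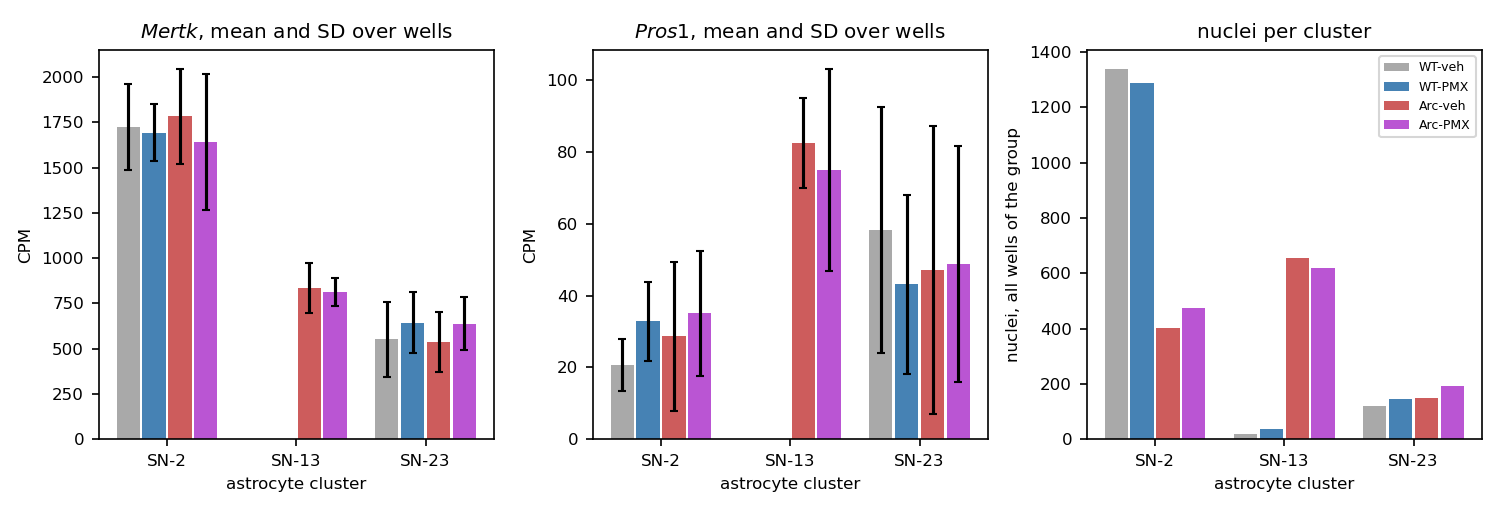
The left and middle panels give the level (y axis, CPM) of Mertk and Pros1 in 3 astrocyte clusters (x axis) as the mean and SD over wells of each group, and the right panel gives the number of nuclei (y axis) per cluster and group. Mertk is near 1700 CPM in all groups of SN-2 and 814.1 to 833.5 CPM in SN-13, which has 20 and 38 nuclei from WT-veh and WT-PMX wells and no WT bar.

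Outside microglia and astrocytes Mertk passed no test. In OPC it was -0.12 ± 0.28 in the veh comparison and -0.73 ± 0.26 in the PMX205 comparison (adjusted p = 0.194), and in neurons -0.44 ± 0.23 (adjusted p = 0.643) and -0.31.

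Tyro3 passed the test between the genotypes in no type, among them the CA1 pyramidal cluster, in which 0.0729% of genes were called in veh and 0.0% in PMX205 wells, and the CA3 pyramidal cluster, with 0.216% and 0.178%. In CA1 pyramidal nuclei the log2 fold changes were -0.35 ± 0.18 (adjusted p = 0.761, edgeR) and -0.41 ± 0.19 (unadjusted p = 0.034, edgeR). In the latter comparison 284 of 8228 genes stood under 0.05 before adjustment. In CA3 pyramidal nuclei Tyro3 was at 0.13 ± 0.27 and -0.14 ± 0.27. In oligodendrocytes its level was 109.6 ± 82.5 CPM in WT-veh, with wells from 0 to 246.4 CPM, 152.1 ± 57.2 in WT-PMX, 137.6 ± 21 in Arc-veh and 145.0 ± 45.1 in Arc-PMX. Both ends of the WT-veh range were the wells M3 and F3, which held the fewest oligodendrocyte nuclei. The log2 fold changes were 0.43 ± 0.23 (adjusted p = 0.496) and -0.11 ± 0.21. In neurons the means were 23.4 ± 1.86, 25.4 ± 7.28, 24.0 ± 5.80 and 26.3 ± 7.24 CPM, with log2 fold changes of 0.01 ± 0.18 and 0.02 ± 0.18.

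Gas6 passed the test in no type. Dentate granule nuclei had 14.58, 13.92, 21.66, 14.42, 12.29 and 7.23 CPM in WT-veh and 30.24, 24.31, 21.94, 20.54, 16.18 and 18.3 CPM in Arc-veh wells F1 to M3. These groups overlapped through WT-veh F3. The log2 fold change was 0.60 ± 0.17 (unadjusted p = 0.00113, adjusted p = 0.158) for Arc-veh over WT-veh and -0.09 ± 0.16 for Arc-PMX over WT-PMX, where 0.28% and 0.299% of 10358 genes were called. Over all neurons it was 0.29 ± 0.10 (adjusted p = 0.513) and -0.10, with 0 of 4 members called beside 0.0886% and 0.0204% of 14678 genes. Astrocytes had 44.1 ± 11.0, 54.2 ± 13.6, 61.1 ± 23.2 and 56.2 ± 14.0 CPM, with a log2 fold change of 0.47 ± 0.23 (adjusted p = 0.211) in the veh comparison. In the choroid plexus, the type with the highest Gas6 level, wells with at least 10 nuclei had 199.4 to 340.4 CPM and the log2 fold changes were 0.20 and 0.17.

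Pros1 rose in oligodendrocytes and in the pooled astrocytes of Arc wells under both treatments, and it did not pass the test in microglia, where its level was highest. In OPC it passed in veh wells only. There it reached the low-count filter through Arc wells alone, and without the filter the call ended. In oligodendrocytes WT-veh wells had 6.5, 5.91, 0, 15.48, 10.89 and 48.43 CPM in F1, F2, F3, M1, M2 and M3, and the 48.43 CPM of M3 was 1 transcript. WT-PMX wells had 7.28, 31.37, 12.67, 14.48, 6.07 and 6.20 CPM. Arc-veh wells had 105.3, 24.38, 65.67, 33.02, 107.5 and 73.33 CPM, and Arc-PMX wells 102.2, 63.14, 68.09, 54.4, 67.97 and 82.32 CPM. The Arc-PMX wells lay above all WT-PMX wells, while WT-veh M3 lay above Arc-veh F2 and M1. The log2 fold changes were 2.69 ± 0.45 (adjusted p = 6.82e-05) and 2.73 ± 0.40 (adjusted p = 4.26e-06). The level the low-count filter asks for (39.9 CPM) was reached in 1 WT and 10 Arc wells, and without the filter the values were 2.72 (adjusted p = 1.53e-07) and 2.78 (adjusted p = 1.82e-10). The other member tested in oligodendrocytes did not pass, and 2.43% and 1.7% of 4641 genes did. Summed over wells, 10 and 15 transcripts were counted in WT-veh and WT-PMX and 119 and 132 in Arc-veh and Arc-PMX, ratios of level of 6.63 (95% interval 3.48 to 14.2) and 7.15 (4.18 to 13.1), counting error only.

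In both oligodendrocyte clusters the mean level of Pros1 was higher in Arc wells, but only SN-8 could be tested. SN-4 had 7 and 8 Pros1 transcripts in WT-veh and WT-PMX and was under the low-count filter. In SN-4 the mean level was 15.4 ± 20.8 CPM in WT-veh, 11.4 ± 4.43 in WT-PMX, 36.5 ± 17.5 in Arc-veh and 53.2 ± 27.6 in Arc-PMX. In SN-8 it was 11.0 ± 9.70 (n = 4), 20.5 ± 39.4, 97.8 ± 62.9 and 94.0 ± 39.5 CPM, and the fit in SN-8 alone gave 2.97 (adjusted p = 0.0154) and 2.94 (adjusted p = 0.000426). Wells overlapped in SN-4, with WT-veh up to 56.4 and Arc-veh from 12.4 CPM, and WT-PMX up to 18.7 and Arc-PMX from 9.49 CPM. They overlapped in SN-8 in the PMX205 groups, with WT-PMX up to 99.9 and Arc-PMX from 53.7 CPM, and not in the veh groups. SN-8 held 173 nuclei from WT-veh and 625 from Arc-veh wells, and 318 from WT-PMX and 537 from Arc-PMX wells. Where nuclei were named one by one by their highest marker score, the oligodendrocyte fold changes were smaller, 1.20 (adjusted p = 0.029) and 1.52 (adjusted p = 0.0014). Microglial markers in oligodendrocyte nuclei, which bear on Pros1 as a microglial transcript, summed to 0 to 164.3 CPM in WT-veh, 76.0 to 134.7 in WT-PMX, 64.4 to 141.6 in Arc-veh and 74.8 to 172.6 in Arc-PMX wells, with 9, 11, 13 and 10 of 14 markers detected and C1qb at 0 in all groups. Their part in the Pros1 difference was not tested.

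In astrocytes Pros1 wells had 29.16, 32.6, 19.8, 25, 22.55 and 12.08 CPM in WT-veh and 55.18, 51.05, 63.82, 61.71, 81.53 and 80.52 CPM in Arc-veh, with no overlap. WT-PMX wells had 23.54, 35.94, 29.44, 42.07, 32.44 and 56.33 CPM and Arc-PMX wells 81.17, 42.41, 60.63, 87.08, 35.83 and 62.47 CPM, and here the groups overlapped. The log2 fold changes were 1.31 ± 0.25 (adjusted p = 0.000138) and 0.77 ± 0.22 (adjusted p = 0.0157). The second call was lost without any of Arc-PMX F1, Arc-PMX M1, WT-PMX F1 or WT-PMX M2, with values from 0.62 to 0.71 and adjusted p from 0.0534 to 0.0848. By cluster, Pros1 was 20.7 ± 7.29 CPM (WT-veh) against 28.6 ± 20.7 (Arc-veh), and 32.8 ± 11.0 (WT-PMX) against 35.0 ± 17.5 (Arc-PMX), in SN-2, and 82.4 ± 12.6 (Arc-veh) and 75.1 ± 28.2 (Arc-PMX) in SN-13. In SN-23 it was 58.3 ± 34.4 CPM (WT-veh) against 47.1 ± 40.2 (Arc-veh), and 43.1 ± 25 (WT-PMX) against 48.8 ± 32.9 (Arc-PMX). In SN-2 or SN-23 alone Pros1 was under the filter on low counts and was not tested. Microglial markers in astrocyte nuclei summed to 39.6 to 80.2 CPM in WT-veh, 50.1 to 113.1 in WT-PMX, 80.5 to 125.4 in Arc-veh and 86.4 to 167.6 in Arc-PMX wells, with 9, 10, 12 and 13 of 14 detected, and their part in the Pros1 difference was not tested.

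OPC showed the same direction for Pros1 with a weaker call. WT-veh wells had 24.14, 19.91, 0, 28.32, 22.04 and 56.71 CPM and Arc-veh wells 66.22, 49.87, 63.81, 72.91, 72.67 and 97.77 CPM, and only WT-veh M3 reached into the Arc-veh range. The PMX205 groups were 30.7 ± 11.9 and 61.8 ± 29.7 CPM and overlapped. The log2 fold change was 1.53 ± 0.36 (adjusted p = 0.0175) for Arc-veh over WT-veh and 1.21 ± 0.33 (adjusted p = 0.0616) for Arc-PMX over WT-PMX. The first call ended without WT-veh F2 (1.53, adjusted p = 0.0737), M1 (1.54, adjusted p = 0.0551) or M2 (1.46, adjusted p = 0.0712). The second comparison passed by highest marker score (1.25, adjusted p = 0.0367) and without Arc-PMX F2 (1.31, adjusted p = 0.0289), Arc-PMX F3 (1.28, adjusted p = 0.0321), WT-PMX M3 (1.38, adjusted p = 0.0456), WT-veh F3 (1.21, adjusted p = 0.048) or WT-veh F3 and M3 (1.21, adjusted p = 0.045). Of 2 members tested, 1 was called in the first comparison and 0 in the second by edgeR or DESeq2, beside 0.954% and 1.04% of 3356 genes. Before adjustment both members were at p under 0.05 in the second comparison, as were 353 of the 3356 genes. Pros1 reached the level the filter asks for in 8 Arc wells and in no WT well, and without the filter the first value was 1.5 (adjusted p = 0.0633). In a fit of 2 groups only and without any of sublibraries 1, 2, 3, 4, 5 and 7 Pros1 was under the filter and the first call could not be tested. Oligodendrocyte markers in OPC nuclei summed to a median of 399.9 CPM in WT-veh, 987.8 in WT-PMX, 1060 in Arc-veh and 2286 in Arc-PMX wells, with 11, 9, 11 and 10 of 11 detected, and their part in the difference was not tested.

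In microglia Pros1 was 307.3 ± 34.0 CPM in WT-veh, 336.1 ± 138 in WT-PMX, 400.9 ± 64.7 in Arc-veh and 343.4 ± 54.1 in Arc-PMX nuclei, with log2 fold changes of 0.40 ± 0.26 (adjusted p = 0.397) and -0.08 ± 0.24 (adjusted p = 0.924). With the unnamed cluster of oligodendrocyte and microglial markers added, the first became 1.19 (adjusted p = 0.000672), a value of mixed nuclei. Single-cell microglia had 0.49 ± 0.40 and 0.11 ± 0.36, neither called. Neurons had 8.15 ± 1.14, 8.15 ± 0.827, 8.20 ± 2.06 and 7.07 ± 0.795 CPM, with log2 fold changes of -0.02 ± 0.13 and -0.18 ± 0.14. The genotype effect on Pros1 was larger in oligodendrocytes than in microglia by 2.14 in veh and 2.51 in PMX205 wells (adjusted p = 0.0231 in both, exact permutation test). Between astrocytes and microglia it differed by 0.93 in veh wells (adjusted p = 0.0191) and 0.67 in PMX205 wells (adjusted p = 0.175), and between OPC and microglia by 1.15 (adjusted p = 0.0231) and 0.78 (adjusted p = 0.146). It was larger in astrocytes than in neurons by 1.42 (adjusted p = 0.0173) and 0.91 (adjusted p = 0.0231). Between oligodendrocytes and neurons it differed by 1.69 in veh wells (adjusted p = 0.0729, same test) and 2.62 in PMX205 wells (adjusted p = 0.0173). Each of these pairs holds a type in which Pros1 had been called in these data, so the comparisons add no independent support.

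**Figure D4:**
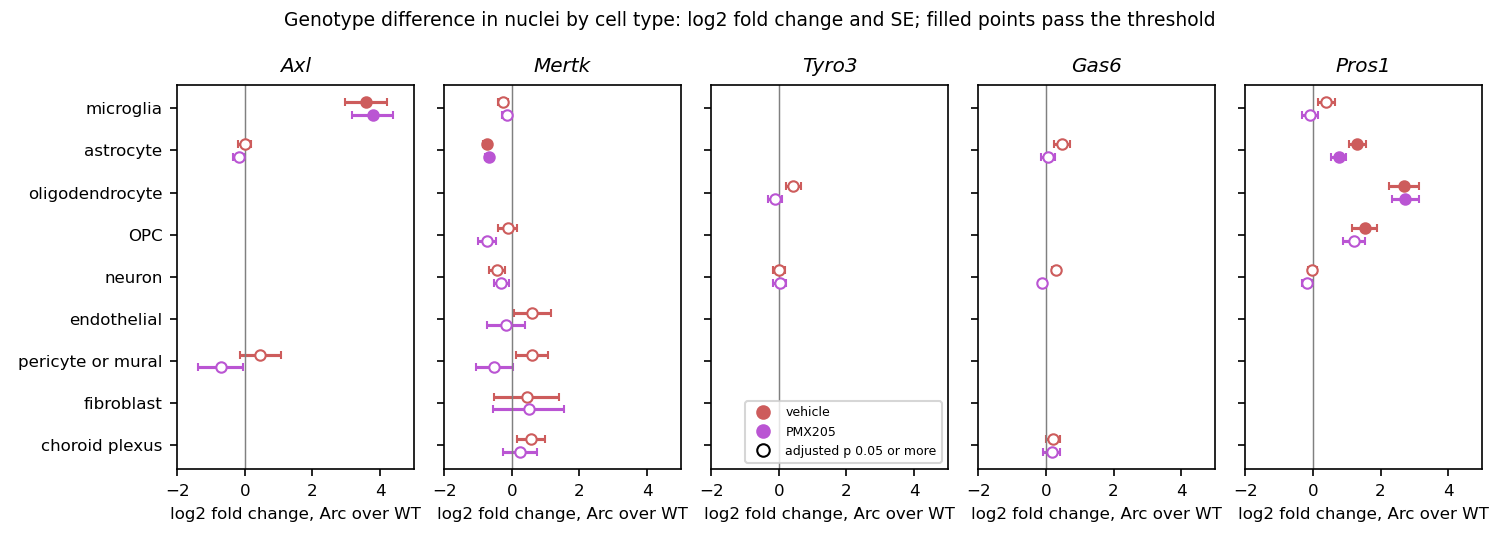
Points give the log2 fold change of Arc over WT (x axis) with its SE for each TAM member in up to 9 types of nuclei (y axis), in veh wells and in PMX205 wells. Filled points passed an adjusted p of 0.05: Axl in microglia (3.59 and 3.78), Mertk in astrocytes (-0.73 and -0.67), and Pros1 in astrocytes (1.31 and 0.77), in oligodendrocytes (2.69 and 2.73) and, in veh wells, in OPC (1.53).

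Over whole nucleus wells, in which fewer cells of a type and less RNA per cell cannot be told apart, Axl and Pros1 rose. Axl was 5.02 ± 2.25 CPM in WT-veh, 6.50 ± 2.02 in WT-PMX, 14.2 ± 4.14 in Arc-veh and 14.7 ± 5.48 in Arc-PMX wells, with log2 fold changes of 1.35 ± 0.26 (adjusted p = 0.00128) and 1.10 ± 0.25 (adjusted p = 0.0102). Pros1 was 9.89 ± 1.32, 11.7 ± 1.07, 19.8 ± 4.94 and 20.4 ± 4.54 CPM, with 0.92 ± 0.14 (adjusted p = 8.62e-05) and 0.78 ± 0.14 (adjusted p = 0.000623). These were 2 of the 5 members, beside 3.99% and 2.87% of 16475 genes. Mertk, lower in Arc astrocytes, was at 0.43 ± 0.16 (adjusted p = 0.152) and 0.32 ± 0.16 (adjusted p = 0.593) over whole wells, and the first passed without the filter on low counts (0.44, adjusted p = 0.00211). Summed microglial markers over whole wells had a median of 108.5 CPM in WT-veh, 122.1 in WT-PMX, 245.3 in Arc-veh and 311.9 in Arc-PMX.

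The share of a member's transcripts that lay in a cell type moved with the genotype in several types, and so did that of many other genes. Of all genes with a transcript in every nucleus well, 57.2% in veh and 46.7% in PMX205 wells had a microglial share at an unadjusted p under 0.05 (exact permutation test over wells), nearly all higher in Arc. For the astrocyte share these were 32.7% and 19.2%, for oligodendrocytes 30.0% and 4.22%, for neurons 10.2% and 17.3% and for OPC 7.17% and 4.34%. By the same rule 4 of 5 members passed for the microglial share under both treatments, 3 and 2 of 5 for astrocytes, 2 and 1 of 4 for oligodendrocytes, 2 and 2 of 5 for neurons and 0 and 2 of 5 for OPC, so the microglial rise is shared with a large part of all genes and is no result about the members. The astrocyte shares of Axl and Mertk fell, while 5243 of the 5306 genes past the rule in veh wells and 2977 of 3136 in PMX205 wells rose. The share of Axl transcripts found in microglia was on average 0.762% in WT-veh and 28.2% in Arc-veh wells, and 0.206% in WT-PMX and 24.6% in Arc-PMX wells. The share of Axl in astrocytes was 66.4% and 39.3% in veh wells and 73.2% and 39.4% in PMX205 wells. For Mertk the microglial share was 4.90% in WT-veh and 27.8% in Arc-veh wells, 6.58% in WT-PMX and 22.8% in Arc-PMX, and the astrocyte share 67.8% and 46.9%, then 70.5% and 44.9%. Neurons held 62.1% of Pros1 transcripts in WT-veh and 30.2% in Arc-veh, and 51.4% and 25.5% in the PMX205 groups. The microglial share of Pros1 was 3.92% and 22.8%, then 6.70% and 16.8%, and its oligodendrocyte share 1.20% and 7.95%, then 1.80% and 7.90%. Gas6 had 0.199% in microglia of WT-veh and 2.21% of Arc-veh wells, and 0.276% and 3.07% in the PMX205 groups. Tyro3 had 4.20% in oligodendrocytes in WT-veh and 11.0% in Arc-veh wells. All these shares passed an exact two-sided permutation test over 6 against 6 wells, whose smallest possible p is 0.00217. Over genes and types 10 shares passed in veh wells (each with adjusted p = 0.0128) and 9 in PMX205 wells (adjusted p from 0.0213 to 0.0426), which is 16.9% and 15.3% of the 59 tested. Without WT-veh F3 and M3, which held almost no microglia, 6 passed in veh wells, and without any of WT-PMX F1, F2, M2 or M3 4 passed in PMX205 wells. The oligodendrocyte share of Tyro3 in PMX205 wells, 7.81% in WT and 10.4% in Arc, did not pass (adjusted p = 0.528). On average neurons held most transcripts of Gas6 and Tyro3 without a change past the threshold. Pooled over all nuclei they held 68.85% of Gas6 and 61.57% of Tyro3 transcripts, beside 72.55% of all transcripts. Neither gene was therefore enriched in neurons. The neuronal share of Gas6 was 72.4%, 71.5%, 67.4% and 68.1% in WT-veh and WT-PMX, then Arc-veh, then Arc-PMX. Microglial nuclei numbered more in Arc wells, 82.5% of all 1507, and the shares follow both the number and the level.

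**Figure D5:**
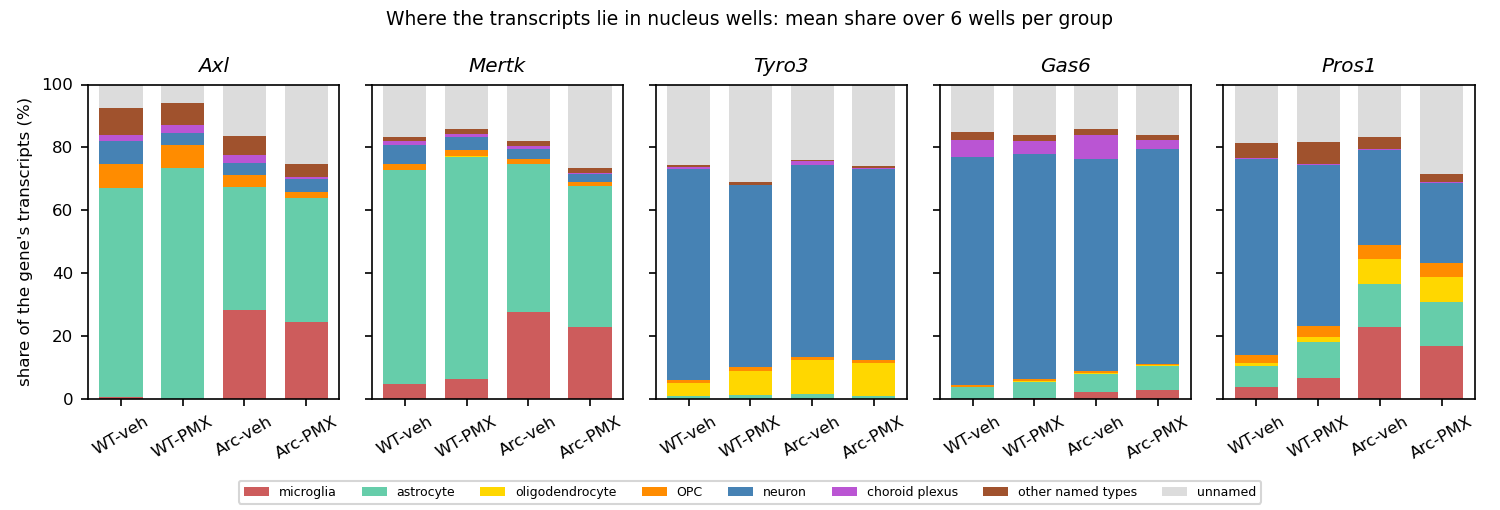
Stacked bars give the mean share (y axis, %) of each TAM member's transcripts that lay in each cell type, over 6 nucleus wells per group (x axis). The microglial part of Axl goes from 0.762% in WT-veh to 28.2% in Arc-veh, and the neuronal part of Pros1 from 62.1% to 30.2%.

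No member passed the edgeR test between PMX205 and vehicle within a genotype. In Arc mice the log2 fold change of Arc-PMX over Arc-veh was -0.03 ± 0.21 for Axl in microglia, 0.01 ± 0.12 for Mertk in astrocytes and 0.13 ± 0.13 for Mertk in microglia. For Pros1 it was -0.09 ± 0.20 in astrocytes, 0.14 ± 0.27 in oligodendrocytes and -0.03 ± 0.28 in OPC. The share of all genes called in this comparison was 0.0459% in microglia, 0.0137% in astrocytes, 0.0215% in oligodendrocytes, 0.0298% in OPC and 0.0% in neurons, whole wells and single-cell microglia. In WT mice it was 0.0% in each of these, and 0.0348% in the choroid plexus. DESeq2 called no member either. At an unadjusted p under 0.05 stood, in nuclei, Gas6 and Tyro3, as did 356 of 10358 genes in dentate granule nuclei and 183 of 4641 in oligodendrocytes for WT-PMX over WT-veh. For Gas6 this comparison was 0.39 ± 0.17 in dentate granule, 0.43 ± 0.21 in CA1 pyramidal and 0.46 ± 0.19 in CA3 pyramidal nuclei and 0.23 ± 0.10 over all neurons, which contain the other 3. Of all genes 304 of 8228 in CA1 pyramidal, 279 of 7864 in CA3 pyramidal and 476 of 14678 over all neurons were likewise under 0.05 before adjustment. In dentate granule nuclei the difference of the PMX205 effects on Gas6, Arc minus WT, was -0.69 ± 0.23 (unadjusted p = 0.00568, adjusted p = 0.9999), with 294 genes under 0.05 before adjustment. It was -0.69 ± 0.30 in CA1 pyramidal nuclei, -0.39 ± 0.14 over all neurons and -0.40 ± 0.14 over whole wells, each also under 0.05 before adjustment only. So were 241 of 8228, 442 of 14678 and 394 of 16475 genes in the same order. For Tyro3 in oligodendrocytes WT-PMX over WT-veh was 0.55 ± 0.24 (unadjusted p = 0.0273, adjusted p = 1). In single-cell microglia Axl was -3.74 ± 1.13 in WT-PMX over WT-veh (adjusted p = 0.171), and the difference of the PMX205 effects was 4.07 ± 1.16 (adjusted p = 0.213), both of which contain the well WT-veh F2. With PMX205, 0 shares passed in either genotype.

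Genes of the same pathway were read from lists chosen by their known roles, over all genes tested of a type. Most lists are short, and a share of calls near that of all genes, 12.1% in microglia and 12.5% in astrocytes in veh wells, says nothing about a list. In microglia, Arc-veh over WT-veh, 1 of 7 tested genes for other phosphatidylserine receptors and bridging proteins passed, Stab1, a scavenger receptor that binds phosphatidylserine. It fell from 693.8 ± 231 CPM to 162.6 ± 62.3 CPM (-2.08 ± 0.31, adjusted p = 7.06e-06), and in the PMX205 groups from 691.1 ± 197 CPM to 195.7 ± 94.6 CPM (-1.89 ± 0.30). Of 5 tested engulfment genes 1 fell, Elmo1, which with Dock1 activates Rac at the phagocytic cup, from 5165 ± 597 to 2788 ± 279 CPM (-0.84 ± 0.14, adjusted p = 4.41e-05). Of 5 tested genes that expose or flip phosphatidylserine 1 fell, Atp8a2, a flippase (-0.66, adjusted p = 0.0113). The 1 tested nuclear receptor, Ppard, rose (1.18 ± 0.34, adjusted p = 0.0161). Of the 3 tested genes of TAM feedback on cytokine signalling and the 2 of further Mertk ligands and sheddases none passed, and no gene of vitamin K-dependent carboxylation was high enough to test. List medians of log2 fold change were 0.05 for the receptors, -0.29 for engulfment and 0.19 for phosphatidylserine exposure, beside 0.02 over all genes.

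Of the 10 listed plaque-response genes of microglia other than Axl 8 passed the filter on low counts. Csf1, Lpl and Clec7a had no transcript in any WT-veh well and passed it only through their level in Arc wells, so no count or median over the list is given. Csf1, a growth factor of microglia, was at 0 in all WT wells and at 395.1 ± 82.7 CPM in Arc-veh wells and 336.3 ± 103 CPM in Arc-PMX, and Lpl, a lipase, was at 0 and at 194.9 ± 68.1 and 119.4 ± 37.4 CPM. Clec7a, a pattern recognition receptor, was at 0 in WT-veh, 15.3 ± 25.7 CPM in WT-PMX, 140.0 ± 43.6 in Arc-veh and 116.2 ± 43.4 in Arc-PMX. The list was drawn from the known response of microglia to plaques and its direction is no independent evidence here.

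In astrocytes, where Mertk fell, uptake genes passed in both directions. Astrocytes of the genotypes lay largely in different clusters, and the 910 genes called in veh wells fell to 12 within SN-2 alone. Mfge8, a bridging protein that astrocytes secrete, fell from 153.5 ± 48.3 to 108.4 ± 17.9 CPM in veh wells (-0.62 ± 0.20, adjusted p = 0.0385) and by -1.07 ± 0.19 in PMX205 wells, the 1 of 7 tested in its list. Abca1, a lipid exporter of the engulfment list, rose by 0.76 ± 0.14 (adjusted p = 0.000122), 1 of 9 tested. Ano6, a phosphatidylserine scramblase, rose by 1.06 ± 0.15 (adjusted p = 1.56e-06) and Atp11a, a flippase, by 0.95 ± 0.19, 2 of 9 tested. In PMX205 wells Atp11a did not pass (0.51 ± 0.18, adjusted p = 0.0632). Ppara, a nuclear receptor of fatty acid use, fell (-0.95 ± 0.18, adjusted p = 0.000203), 1 of 4 tested. The medians of these lists lay between -0.09 and 0.10, beside 0.01 over all genes. Of the plaque-response list 3 of 5 tested rose in veh wells, Cd9, Csf1 and Ctsb, and in PMX205 wells Cd9 and Csf1 rose while Ctsb did not pass (0.41 ± 0.24, adjusted p = 0.331).

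Over all genes tested, 2.43% passed in oligodendrocytes and 0.954% in OPC in veh wells. In oligodendrocytes, where Pros1 rose, Dock1 rose in veh wells by 0.46 ± 0.12 (adjusted p = 0.0239), 1 of 7 tested of the engulfment list. It did not pass in PMX205 wells (0.25 ± 0.12, adjusted p = 0.464). Csf1 (1.05) and Cd9 (0.85) rose in veh wells, 2 of 4 tested plaque-response genes. In OPC Cd9, a tetraspanin, rose in veh wells by 1.0 ± 0.22 (adjusted p = 0.0076) and did not pass in PMX205 wells (0.73 ± 0.20, adjusted p = 0.0733), the only plaque-response gene tested. The other lists gave no call in these types, and none gave one in neurons or in any comparison of PMX205 with vehicle.

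Genes with a pattern most like each member were named by Pearson's r of log2(CPM + 1) over 52 means of cell type by group, among 17657 genes. These points share wells and depth, and r is a description. For Axl they were Mmp14 (0.904), Loxl3 (0.86) and Zfp516 (0.841), and for Mertk Lyn (0.88), Etv6 (0.878) and Zfp217 (0.866). For Tyro3 they were Cntn2 (0.783), Myrf (0.742) and Anln (0.71), for Gas6 Whrn (0.759), Dglucy (0.755) and Myo7a (0.753), and for Pros1 Agmo (0.88), Lrmda (0.877) and Ddx60 (0.86). No member was among the 3 genes most like another member.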

How the data were processed

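Transcripts were barcoded by split-pool combinatorial indexing in 48 first-round wells, 24 of single cells and 24 of nuclei, and sequenced as 7 sublibraries that mix all wells. The authors deposited raw transcript counts per gene and barcode, made with split-pipe on mm10 (bcl2fastq is also named in the processing notes), with 1516119 barcodes and without normalization, and a sample sheet that gives each well its group. The members and lists were chosen with earlier results of these data known.

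Barcodes with over 300 and under 50000 transcripts were kept, with under 10% mitochondrial transcripts and over 300 genes for cells and under 1% and over 400 genes for nuclei. Of 48969 that passed, 1253 nuclei and 8 cells with a doublet score above 0.25 (Scrublet in scanpy 1.11.5) were removed. Barcode combinations seen in 2 or more sublibraries numbered 8743 and were kept as separate cells, and none repeated within a sublibrary. Cells were clustered (2000 variable genes without the members, 30 components, 15 neighbours, leidenalg 0.10.2) and clusters named from marker lists, with 8 of 37 clusters of nuclei and 2 of 15 of cells unnamed. The score of 0.42 that separates classes of neurons was set after the clusters were seen.

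Counts were summed per well and type (at least 10 cells) and tested with edgeR 4.0.16 in R 4.3.3 (TMM, filterByExpr, quasi-likelihood, all 4 groups in one fit, sex as covariate, Benjamini-Hochberg over all genes tested, threshold 0.05), since a test over cells would take cells as replicates. Nucleus wells hold 1 mouse each and single-cell wells pools. Shares and differences between types used exact two-sided permutation over wells (scipy 1.17.1), the latter on log2 CPM with 0.5 added to each count, leaving out Axl in oligodendrocytes, which had no count. As background the shares of all genes were tested alike. Intervals of count ratios are exact, at 95%, and cover counting error only. In simulated counts of microglial nuclei edgeR recovered 37% of log2 changes of 1 and 89% of log2 changes of 2 over 2180 genes, and in astrocytes 72% and 97% over 7295 genes. Filter and TMM moved the library size used for scaling by -0.144 on the log2 scale against total counts in oligodendrocytes (Arc-veh over WT-veh). In single-cell microglia the shift was -0.289. A negative shift raises the fold changes of Arc over WT. The median log2 fold change over all genes tested was 0.011 and 0.012 in these 2 fits. Deviations of same-numbered wells of different groups had a median correlation of 0.08 in neurons, against -0.04 for other pairs. Over whole wells these were 0.02 and -0.01. Single same-numbered pairs ran from -0.64 to 0.59 in neurons, so pairing was neither shown nor excluded. Wells were not treated as pairs, and a replicate block was run as an alternative.

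Named genes are the 5 members in every type, up to 3 genes per pathway list and type with the largest fold change among those past the threshold in Arc-veh over WT-veh, the 3 genes most like each member, and App. A gene that this rule names is not reported here. Alternatives were DESeq2 1.42.0, relative log expression, no filter, no covariate, 2 groups only, a replicate block, doublets kept, a stricter filter, highest marker score, removal of transcripts linked to ribosomal RNA, and each well or sublibrary left out. Added after seeing the data were unnamed clusters counted as microglia, single clusters, the wells WT-veh F3 and M3 left out, and the differences between types. The last were taken only for members with a call in at least 1 type of the pair.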

Additional observations from a re-analysis of the deposited data

Results flagged for a closer look

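Of 129 groups of 4 to 10 wells examined, 7 had a well far from the others, and chance alone gives about 1 in 20 groups. The level of Gas6 in CA3 pyramidal nuclei was 64.61 CPM in Arc-PMX F3 with the nearest well at 28.62 CPM, and in astrocytes 81.37 CPM in WT-PMX M3 with the nearest at 53.05 CPM. Axl in microglia was 85.16 CPM in WT-PMX M2 against 0 in the other wells, and Mertk in microglia was 1868 CPM in WT-PMX F1 with the nearest at 2981 CPM. Tyro3 in neurons was 26.95 CPM in WT-veh F3 with the nearest at 23.29 CPM. Pros1 in oligodendrocytes was 48.43 CPM in WT-veh M3 (nearest 15.48 CPM) and 31.37 CPM in WT-PMX F2 (nearest 14.48 CPM).

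The genotype effect differed between cell types in 17 of 32 within-well comparisons of log2 ratios (exact permutation test over wells). The pairs were chosen by the calls in these same wells, since each holds a type in which the member had passed. The count of 17 is therefore no independent support for those calls, and no share over all genes is set beside it. For Axl the effect in microglia exceeded that in OPC by 2.60 in veh wells (adjusted p = 0.0191) and 4.31 in PMX205 wells (adjusted p = 0.0173), that in astrocytes by 3.12 (adjusted p = 0.0191) and 3.37 (adjusted p = 0.0173), and that in neurons by 2.83 and 2.26 (adjusted p = 0.0231 in both). For Pros1 in veh wells the effect in OPC exceeded that in microglia by 1.15 (adjusted p = 0.0231) and that in astrocytes exceeded that in microglia by 0.93 (adjusted p = 0.0191). The effect in OPC exceeded that in neurons by 1.49 (adjusted p = 0.0231) and 1.04 (adjusted p = 0.0407), and that in astrocytes exceeded that in neurons by 1.42 (adjusted p = 0.0173) and 0.91 (adjusted p = 0.0231). In PMX205 wells the effect in OPC minus that in oligodendrocytes was -1.58 (adjusted p = 0.0346), and in astrocytes minus oligodendrocytes -1.71 (adjusted p = 0.0191). The effect in oligodendrocytes exceeded that in microglia by 2.14 and 2.51 (adjusted p = 0.0231 in both) and, in PMX205 wells, that in neurons by 2.62 (adjusted p = 0.0173). Where a gene is at 0 in a well these differences depend on the pseudocount of 0.5 counts.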

How the results depend on the processing

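Axl in microglial nuclei kept its direction and call under all alternatives run, with log2 fold changes of 3.19 to 4.80 (Arc-veh over WT-veh) and 3.13 to 7.91 (Arc-PMX over WT-PMX) when a well was left out, the highest without WT-PMX M2. In single-cell microglia Axl for Arc-PMX over WT-PMX ran from 4.08 to 8.01 without a well, and it did not pass the low-count filter, so that 0 members were called, without Arc-PMX F2 and without sublibrary 1, 2 or 7. Mertk in astrocytes kept its call except within 1 cluster: 0.05 and -0.05 in SN-2 alone, and -0.06 and 0.02 in SN-23 alone, for the veh and PMX205 comparisons, and here levels differ between clusters. Mertk in microglia turned from -0.26 to 0.84 with the unnamed cluster of mixed markers added. Pros1 in OPC was 1.5 (adjusted p = 0.0633) without the filter and 1.43 to 1.68 without a well. It was not tested in 2 groups only or without any of sublibraries 1, 2, 3, 4, 5 and 7. Settings under which Pros1 in OPC passed in PMX205 wells are given with its values above, and Mertk over whole wells passed without the filter (0.44, adjusted p = 0.00211). Pros1 in astrocytes for Arc-PMX over WT-PMX ran from 0.62 to 0.92 without a well. Pros1 in oligodendrocytes kept its call, with 1.20 and 1.52 by highest marker score, but was not tested for veh in 2 groups only or in SN-4 alone. Members called over 9 types of nuclei in Arc-veh over WT-veh numbered 5, then 3 with 2 groups only and 9 with unnamed clusters added. With 2 groups only, Pros1 was not tested in OPC and oligodendrocytes. The unnamed clusters entered the microglial fit only, in which the count over all genes rose as well (given below). That rise in calls is therefore no result about the members. Shares past the threshold numbered 10 in veh wells, 6 without WT-veh F3 and M3, and in PMX205 wells 9, down to 4 when a WT-PMX well was left out. The cause of these changes was not tested unless named.

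Counts over all genes moved by over 1.5 times in some settings. For Arc-veh over WT-veh they were in astrocytes 910, then 12 in SN-2 and 2 in SN-23 alone; in microglia 263, then 1180 with unnamed clusters added and 161 without WT-veh F2; in oligodendrocytes 113, then 18 in SN-4 and 62 in SN-8 alone; in OPC 32, then 52 without a filter; over whole wells 658, then 1071 without a filter, 432 without Arc-veh M3 and 438 without WT-veh F3 and M3. In single-cell microglia they were 0, then 12 by DESeq2, 90 by highest marker score, 25 without a filter, 81 with unnamed clusters, 3 without Arc-veh F2 and 12 without WT-veh F2. For Arc-PMX over WT-PMX they were in astrocytes 822, then 18 and 1 in SN-2 and SN-23; in microglia 276, then 172 with 2 groups only; in oligodendrocytes 79, then 9 in SN-4 alone and 129 without a filter; in OPC 35, then 92 without a filter and 23 and 60 without sublibraries 3 and 5; in single-cell microglia 124, then 51 to 212.

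Same-numbered wells were not paired by the labels, and the data did not settle whether they were. The replicate block gave 3.52 and 3.76 for Axl in microglia, -0.72 and -0.67 for Mertk in astrocytes, and 79 against 124 genes in single-cell microglia (Arc-PMX over WT-PMX). It ended no call of a member. Depth limits the microglial values: WT-veh and WT-PMX nuclei hold 134 and 129 microglia, and a member at 0 in a WT well is not shown to be absent.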
